A study of Mus musculus with 28 samples.

Results

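The genes described here are those of the pro-opiomelanocortin (POMC) machinery of the pituitary gland: the prohormone gene Pomc, the enzyme genes Pcsk1, Pcsk2, Cpe and Pam, the lineage factor genes Tbx19 and Pax7, and the receptor genes Crhr1 and Avpr1b. They were taken by name from the count table, where all 9 were found among 32594 genes, and all 9 passed the filter on low counts. RNA was sequenced from whole pituitaries of 28 C57BL/6J mice, labelled as 8 weeks old, 16 females and 12 males. Home cage controls (4 females, 4 males) were neither sleep deprived nor restrained, restraint mice (4 females, 2 males) were held in a restrainer for 20 min and killed 10 min later, PSD mice (4 females, 3 males) underwent 12 h of paradoxical sleep deprivation on platforms over water and were killed 18 h after it ended, and PSD + restraint mice (4 females, 3 males) received both. All mice were of the same strain, and mice of every group were adapted to the deprivation tanks, per the study's methods, which place 4 cage mates in a tank without saying which mice shared one. The comparisons ask how sleep deprivation alters the pituitary transcriptome and its response to an acute stressor in each sex.

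Pomc is transcribed in 2 pituitary cell types, the corticotropes of the anterior lobe and the melanotropes of the intermediate lobe, and its protein is a precursor that is cut into several hormones. Prohormone convertase 1/3 (Pcsk1) releases adrenocorticotropic hormone in corticotropes, while prohormone convertase 2 (Pcsk2) cuts it further in melanotropes into the precursors of α-melanocyte-stimulating hormone and β-endorphin. Carboxypeptidase E (Cpe) then trims the basic residues left at the cut ends, and peptidylglycine α-amidating monooxygenase (Pam) amidates peptides such as α-melanocyte-stimulating hormone. Tbx19 (also called Tpit) is the T-box factor that both lineages need for Pomc transcription, and Pax7 sets the melanotrope identity. Hypothalamic CRF and vasopressin reach corticotropes through the receptors encoded by Crhr1 and Avpr1b.

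Because several of the genes below rose and fell together with Pomc, the stretch directly in front of Pomc is shown. Pomc lies on chromosome 12 of GRCm38 (mm10), at chr12:3954951-3960642 on the plus strand. The 250 bases upstream of its RefSeq start (GRCm38.p6, chr12:3954695-3954944, plus strand) are printed 5′ to 3′ with matches to the searched motifs in capitals.

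Pomc promoter: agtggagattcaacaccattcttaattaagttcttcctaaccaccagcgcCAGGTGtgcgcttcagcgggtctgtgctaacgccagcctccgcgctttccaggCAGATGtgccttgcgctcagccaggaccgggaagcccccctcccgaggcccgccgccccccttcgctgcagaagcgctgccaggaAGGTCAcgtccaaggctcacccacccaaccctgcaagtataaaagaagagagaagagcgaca

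Both strands were searched for CANNTG (E box, the motif of NeuroD factors), TCACACC (a T-box factor motif), TAATCC (the first Pitx motif searched), TAAGCC (the second Pitx motif), TGACCT (a nuclear receptor motif) and TGACG (the core of a cAMP response element). Capitals mark E boxes that begin 200 and 147 bases before the start and, 62 bases before it, TGACCT read on the opposite strand, while the letters TATAAA begin 25 bases before it. Of the same window in 32851 RefSeq promoters, 66.2% held an E box and 14.0% held TGACCT. The letters of the T-box motif (in 3.33% of the windows), the first and the second Pitx motif (6.25% and 8.2%) and the cAMP response motif (17.8%) were not in this one. Bases farther from the start were not searched, so sites of these factors outside the window are not covered.

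Pomc took 1.17% to 16.1% of the counts of a mouse. Per kilobase of exon, the median level over 28 mice was 60633 CPM (counts per 1000000, scaled with TMM factors) for Pomc, 460 for Cpe, 229 for Pcsk2, 132 for Pam, 44.4 for Tbx19, 36.9 for Pcsk1, 8.78 for Pax7, 8.23 for Crhr1 and 0.864 for Avpr1b. In this order, the ranges of neighbours over mice did not overlap for Pomc and Cpe, for Pam and Tbx19, and for Crhr1 and Avpr1b. All other neighbours overlapped, and Tbx19 (25.1 to 61.8 CPM per kb) and Pcsk1 (17.9 to 56.2 CPM per kb) covered much the same range. Avpr1b rested on 43 to 316 counts per mouse and has the largest counting error of the 9, whereas every other gene had at least 302 counts in each mouse.

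One library stood apart before any comparison. Male control mouse 1 had 11423 CPM of Pomc, 222 of Pcsk2, 11.3 of Pax7 and 66.8 of Tbx19, each the lowest of 28 mice, while its Crhr1 (20.97 CPM) lay above the other male controls (15.6 to 18.0 CPM) and its Avpr1b (3.40 CPM) within them. It was also the lowest mouse for all 8 melanotrope markers, a list that includes Pcsk2 and Pax7. The same held for all 6 markers of pituicytes (the glial cells of the posterior lobe) and both posterior lobe peptide transcripts, Avp and Oxt. The summed level of the pituicyte list was 6.52 CPM in this mouse and 64.6 to 158 CPM in the other 27. Calls over all mice or males, and values printed below for the 9 genes that this mouse moved by over 1.5 times, are therefore given with and without it after PSD and after PSD + restraint. Some log2 fold changes of males not printed below moved too. After PSD, Pomc went from 0.86 to 0.54, Pcsk2 from 0.83 to 0.52 and Pax7 from 0.34 to 0.034 without this mouse. After PSD + restraint, Pax7 went from 0.53 to 0.23 and Tbx19 from 0.27 to 0.10. None of these was called. In RNA of a whole gland, fewer cells of a type and less RNA per cell cannot be told apart. Among all mice, none of the corticotrope, melanotrope or pituicyte markers was at 0 counts. Library totals ranged from 14024465 to 52948531 counts.

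**Figure D1:**
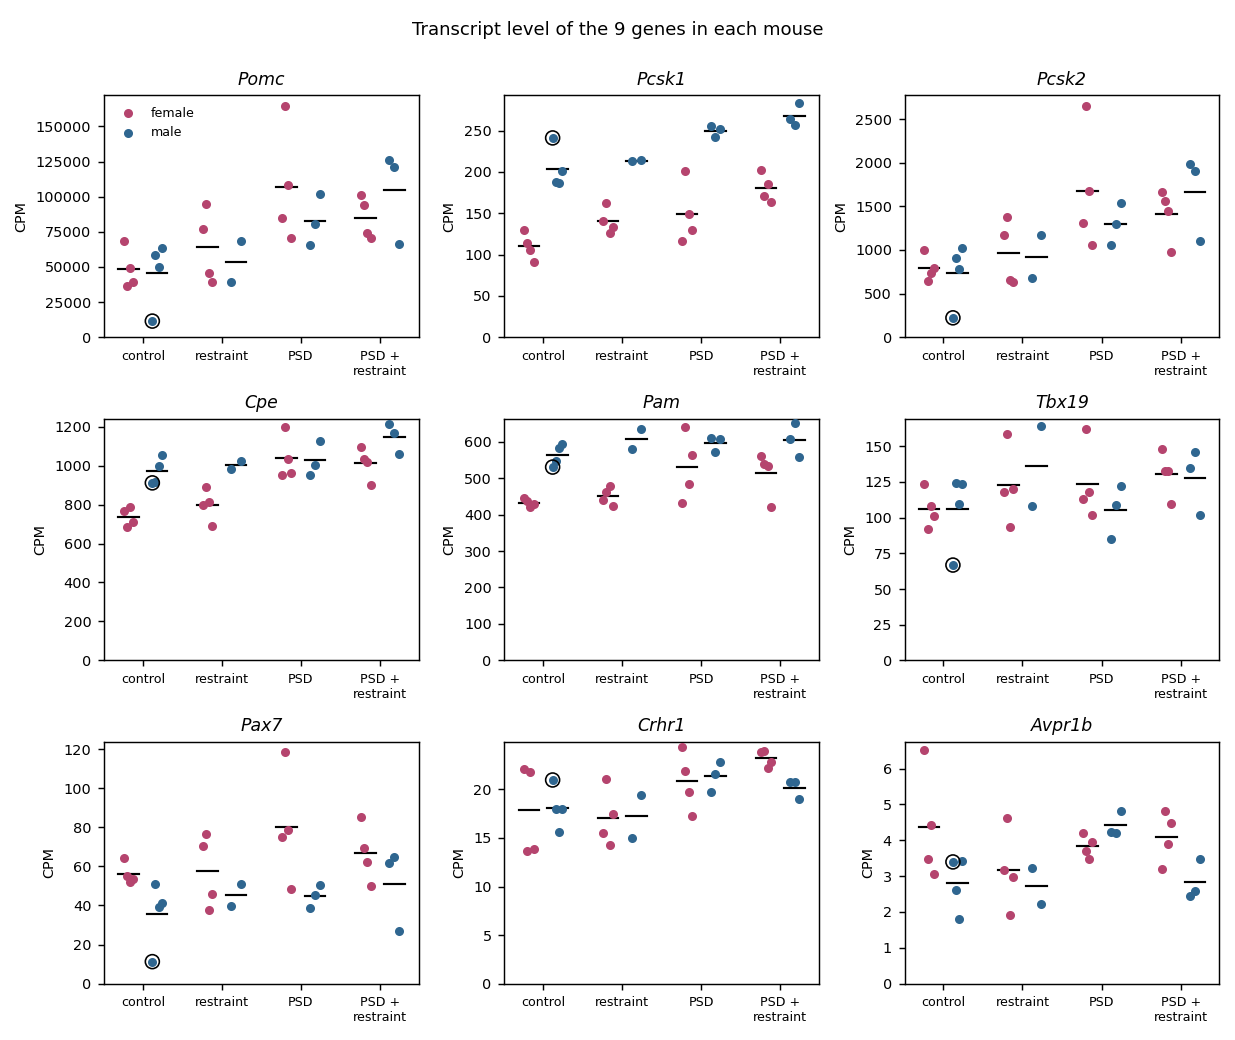
Scaled counts (CPM) of each of the 9 genes in each mouse, on linear axes from 0, by treatment (x axis) and sex (colour). Each point is a mouse, black bars are group means, and the ringed point is male control mouse 1, which is lowest for Pomc (11423 CPM), Pcsk2, Tbx19 and Pax7 and not for Pcsk1.

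Pomc rose after PSD + restraint, about 2-fold over all mice, and lay higher after PSD alone without passing the test. In home cage control females Pomc was counted at 68145, 36567, 49528 and 39206 CPM, and in PSD females at 84475, 164445, 108347 and 70260 CPM. PSD + restraint females had 101425, 93727, 74328 and 70509 CPM. All 8 deprived females thus lay above all 4 control females, although the nearest mice differed by little, and the 4 restraint females (77008, 94470, 45509 and 39376 CPM) overlapped the controls. Control males had 11423, 58418, 49603 and 63528 CPM, PSD males 65869, 80382 and 101633, and PSD + restraint males 126166, 121038 and 66216. Each deprived male lay above each control male, and the lowest of them by a narrow margin, while the 2 restraint males (39019 and 68226 CPM) fell on both sides. The order of the group means in females was control (48361 ± 14326 CPM, SD, n = 4), restraint (64091 ± 26114, n = 4), PSD + restraint (84997 ± 14942, n = 4) and PSD (106882 ± 41468, n = 4). In males the order was control (45743 ± 23592, n = 4, or 57183 ± 7044 for the 3 mice other than mouse 1), restraint (53623 ± 20653, n = 2), PSD (82628 ± 17988, n = 3) and PSD + restraint (104473 ± 33231, n = 3). In both sexes the ranges of restraint and control overlapped, as did those of PSD and PSD + restraint, so these neighbours in the order did not differ beyond their spread.

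Over all mice, the log2 fold change of Pomc after PSD + restraint was 0.99 (SE 0.27, edgeR adjusted p = 0.0157), and it was 0.85 (adjusted p = 0.0122) without male control mouse 1. The pituicyte markers moved with it in females, at 64.6 to 94.7 CPM summed in controls and 110 to 143 CPM after PSD + restraint. With their mean log2 level as a covariate Pomc had 0.48 (edgeR adjusted p = 0.0869) and was not called. That level did not overlap between control and PSD + restraint females, so this fit cannot fully tell covariate and treatment apart. After PSD alone, without the covariate, the value for Pomc was 1.03 (SE 0.27, adjusted p = 0.0606), a difference of like size that did not pass the test over all mice. It was called without control female 1 (1.12, adjusted p = 0.0416), PSD female 4 (1.10, adjusted p = 0.0388) or PSD male 1 (1.11, adjusted p = 0.0483). The PSD value was 0.89 (adjusted p = 0.0529), not called, without male control mouse 1. Restraint alone gave 0.35 (SE 0.28, adjusted p = 0.771), and 0.22 (adjusted p = 0.862) without that mouse. Within a sex, Pomc did not pass after PSD + restraint, with 0.82 (adjusted p = 0.133) for females and 1.19 (adjusted p = 0.168) for males, the latter 0.87 (adjusted p = 0.0760) without male control mouse 1.

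Of the enzymes that cut POMC, both convertases rose after PSD + restraint, Pcsk2 about 2-fold and Pcsk1 about 1.5-fold. Pcsk2, the convertase of melanotropes, was counted at 998, 648, 739 and 797 CPM in control females and at 1309, 2652, 1671 and 1052 CPM in PSD females. PSD + restraint females had 1667, 1562, 1448 and 977 CPM, of which the lowest lay just below the highest control. In males, Pcsk2 stood at 222, 907, 780 and 1026 CPM in controls, at 1051, 1297 and 1535 CPM after PSD and at 1982, 1901 and 1107 CPM after PSD + restraint, so that both deprived groups lay above the controls. The log2 fold change over all mice was 0.996 (SE 0.25, adjusted p = 0.00926) after PSD + restraint and 0.98 (SE 0.25, adjusted p = 0.0544) after PSD, and without male control mouse 1 these were 0.86 (adjusted p = 0.00783) and 0.85 (adjusted p = 0.0529). The PSD value was called without control female 1, restraint female 2, restraint female 3, PSD female 4 or PSD male 1 (0.976 to 1.05, adjusted p = 0.0345 to 0.0485). With the pituicyte covariate the value after PSD + restraint was 0.51 (edgeR adjusted p = 0.0538), not called. The same limit applies, as the covariate did not overlap between control and PSD + restraint females. On mm10 chromosome 2, exons of Pcsk2 (chr2:143546156-143816285, plus strand) overlap the opposite-strand genes Pcsk2os1 and Pcsk2os2. The kit was stranded, but the strand setting of the counting was not given in the sources used here, so reads of these genes cannot be set apart from those of Pcsk2.

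Pcsk1 was the one of the 9 genes called in each sex on its own. Control females had 130, 113, 106 and 90.4 CPM and PSD + restraint females 202, 170, 186 and 164 CPM, with no overlap. In control males Pcsk1 was at 241, 188, 187 and 201 CPM, and in PSD + restraint males at 264, 257 and 283 CPM, again with no overlap. Male control mouse 1, low for Pomc and Pcsk2, was the highest control for Pcsk1. PSD without restraint gave 117, 201, 149 and 129 CPM in females, 2 of them below the highest control, and 256, 242 and 253 CPM in males, all above the controls, though the nearest hardly so. Restraint alone gave 140, 163, 126 and 133 CPM in females, 3 of 4 above every control, and 213 and 214 CPM in males, within the controls. It was not called, at 0.23 log2 over all mice (edgeR unadjusted p = 0.0274, adjusted p = 0.379). The values were 0.36 in females (unadjusted p = 0.0224, adjusted p = 0.402) and 0.07 in males. The log2 fold change after PSD + restraint was 0.57 (SE 0.09, adjusted p = 1.9e-04) over all mice, 0.72 (SE 0.14, adjusted p = 0.0144) among females and 0.40 (SE 0.08, adjusted p = 0.0208) among males. The call among males was lost when any 1 of 6 mice was left out, the 3 other controls or the 3 PSD + restraint males (adjusted p = 0.0539 to 0.0758), and without male control mouse 1 it was 0.49 (adjusted p = 8.3e-04), beside 0.62 (adjusted p = 4.6e-05) over all mice. Among females it was lost without control female 4 (0.64, adjusted p = 0.0572) or PSD + restraint female 1 (0.66, adjusted p = 0.06). After PSD it was 0.36 (SE 0.09, adjusted p = 0.0597) over all mice. Leaving out male control mouse 1 brought the PSD contrast past the test, at 0.42 (adjusted p = 0.0356) over all mice and 0.39 (adjusted p = 0.0384) in males. Over all mice Pcsk1 was also called after PSD without control female 1, restraint female 2, PSD female 1 or PSD female 4 (0.364 to 0.415, adjusted p = 0.0346 to 0.0485).

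The trimming enzyme gene Cpe rose after PSD + restraint over all mice and in females, by a smaller factor. Control females had 769, 684, 786 and 712 CPM, PSD females 953, 1197, 1033 and 964 CPM and PSD + restraint females 1097, 1033, 1016 and 899 CPM, all 8 deprived females being above all 4 controls. Control males had 911, 918, 997 and 1055 CPM, and PSD males 953, 1001 and 1125 CPM, of which 1 lay above every control. PSD + restraint males had 1215, 1166 and 1059 CPM, the last of them barely above the highest control. After PSD + restraint the log2 fold change was 0.35 (SE 0.07, adjusted p = 0.0016) over all mice, 0.46 (SE 0.09, adjusted p = 0.0122) for the females and 0.25 (adjusted p = 0.101) for the males. The value over all mice was 0.35 (adjusted p = 0.0026) without male control mouse 1, and that of females lost its call without PSD + restraint female 1 (0.42, adjusted p = 0.0539). After PSD, Cpe had 0.31 (SE 0.07, adjusted p = 0.0375) over all mice, under the minimum of 0.32 that a call needed, and an adjusted p of 0.051 without male control mouse 1. Pam, the amidating enzyme, was not called in any treatment comparison, with 0.18 (SE 0.07, adjusted p = 0.0827) after PSD + restraint over all mice and an adjusted p of 0.112 without male control mouse 1. Within a group Pam spread most in PSD females, from 431 to 640 CPM. Its levels in PSD + restraint mice were 560, 538, 532 and 422 CPM in females, 3 of them above the controls (420 to 445 CPM) and 1 within them.

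The lineage factor genes were not called after any treatment. Tbx19 was at 123, 91.9, 108 and 101 CPM in control females and at 148, 133, 132 and 110 CPM in PSD + restraint females, which overlap. In males it was at 66.8, 124, 110 and 124 CPM in controls and at 135, 146 and 102 CPM after PSD + restraint. Its log2 fold change over all mice was 0.29 (SE 0.14, adjusted p = 0.174) after PSD + restraint and 0.13 (SE 0.14, adjusted p = 0.659) after PSD, which without male control mouse 1 became 0.22 (adjusted p = 0.281) and 0.057 (adjusted p = 0.852). The within-mouse ratio of Pomc to Tbx19 counts, which no scaling affects, is given as a description. Its mean log2 value was 8.80 ± 0.23 (SD, n = 4) in control females, 8.96 ± 0.44 (n = 4) after restraint, 9.70 ± 0.26 (n = 4) after PSD and 9.34 ± 0.15 (n = 4) after both, and every deprived female lay above every control female (8.60 to 9.11 against 9.13 to 9.98). In males it was 8.53 ± 0.75 (n = 4), 8.60 ± 0.14 (n = 2), 9.61 ± 0.09 (n = 3) and 9.64 ± 0.27 (n = 3), with the highest control at 9.004 and the lowest deprived mouse at 9.34. Pax7 was at 64.3, 54.9, 51.8 and 53.6 CPM in control females and at 75.0, 118, 78.7 and 48.3 CPM after PSD. Its log2 fold change over all mice was 0.45 (SE 0.23, adjusted p = 0.314) after PSD and 0.38 (SE 0.23, adjusted p = 0.321) after PSD + restraint, with the lowest PSD + restraint male at 26.8 CPM. Leaving out male control mouse 1 gave 0.31 (adjusted p = 0.373) and 0.24 (adjusted p = 0.450), and without PSD female 2, the mouse at 118 CPM, the PSD value was 0.295 (adjusted p = 0.563).

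The receptor genes were low and were not called. Crhr1, the CRF receptor, was at 22.1, 13.7, 21.8 and 13.9 CPM in control females and at 23.9, 24.0, 22.2 and 22.9 CPM in PSD + restraint females. The treated females lay above the controls, but control females 1 and 3 came close to them, and without either of these the value over all mice was called (0.328, adjusted p = 0.0388, and 0.325, adjusted p = 0.0467). With every mouse, Crhr1 had 0.28 (SE 0.10, adjusted p = 0.0761) over all mice, 0.32 (adjusted p = 0.0482) without male control mouse 1, where it stayed under the minimum fold change, and 0.38 (adjusted p = 0.194) in females. Avpr1b, the vasopressin V1b receptor, was at 3.40, 2.62, 1.81 and 3.43 CPM in control males and at 4.24, 4.19 and 4.82 CPM in PSD males, which did not overlap. PSD + restraint males had 2.44, 2.57 and 3.47 CPM, like the controls. In males the log2 fold change of Avpr1b after PSD was 0.64 (SE 0.21, adjusted p = 0.422), or 0.74 (adjusted p = 0.298) without male control mouse 1, and in females it was -0.19 (SE 0.25, adjusted p = 0.713). The difference between these responses was -0.83 (SE 0.35, unadjusted p = 0.0250, edgeR adjusted p = 0.408), so a difference between the sexes was not called.

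**Figure D2:**
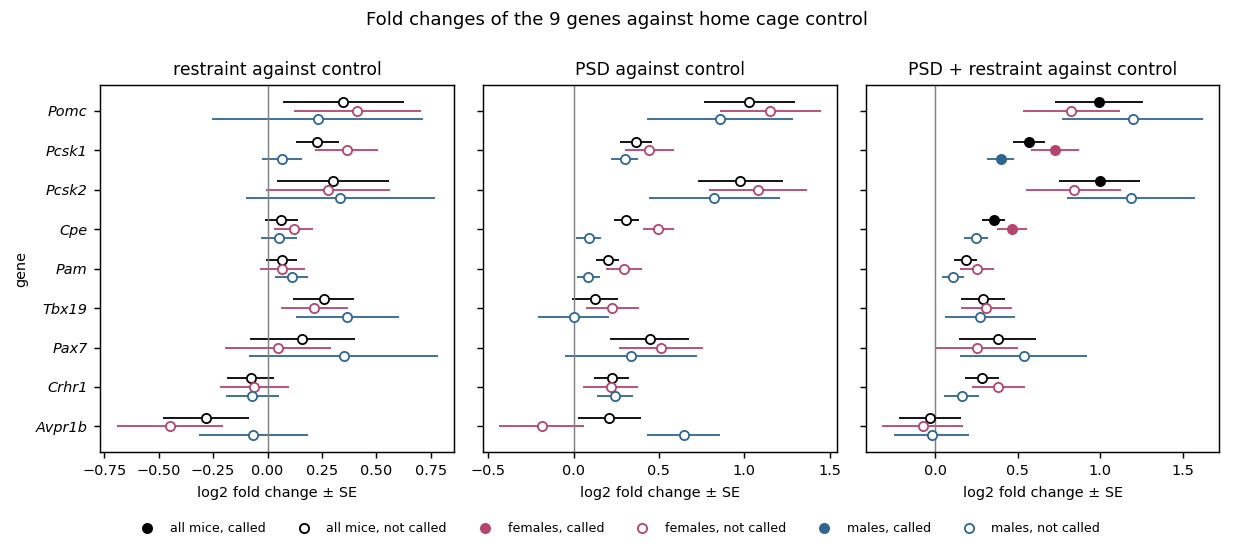
Log2 fold change ± SE (x axis) of each gene (y axis) against home cage control, from edgeR over all mice (black), females and males, with filled points for calls. Calls stand only in the PSD + restraint panel: Pomc, Pcsk1, Pcsk2 and Cpe over all mice, Pcsk1 and Cpe in females, and Pcsk1 in males.

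Counted over the 9 genes, 4 were called higher after PSD + restraint over all mice, where 5.46% of the genes tested were called. In females 2 of 9 were called (background 2.2%), and in males 1 of 9 (background 2.56%). An unadjusted p under 0.05 was found for 7 of 9 over all mice, 6 of 9 in females and 4 of 9 in males, beside 25.5%, 20.2% and 17.4% of all genes tested. The median log2 fold change of the 9 genes after PSD + restraint was 0.35 over all mice, beside 0.0013 for all genes tested. After PSD none of the 9 was called by edgeR over all mice (background 0.671%), in females (0.0277%) or in males (0.00547%), while 6, 5 and 3 of them had an unadjusted p under 0.05, as had 17.6%, 19.8% and 8.85% of all genes tested. DESeq2 called 3 over all mice (Pomc, Pcsk1 and Pcsk2; background 1.53%), 3 in females (Pomc, Pcsk2 and Cpe; background 2.42%) and 0 in males (background 0.443%). Restraint alone gave no call among the 9 by edgeR or DESeq2, over all mice (background 1.14%, 1 of 9 with an unadjusted p under 0.05), in females (0.543%, 1 of 9) or in males (0.296%, 0 of 9). The DESeq2 background of these comparisons was 1.47%, 1.15% and 0.553%, and an unadjusted p under 0.05 was found for 10.3%, 9.77% and 5.07% of all genes. Levels that did not overlap the controls were counted for 3 genes in PSD females, 4 in PSD + restraint females, 4 in PSD males and 4 in PSD + restraint males, all above the controls, and for 0 in either restraint group. Of all genes tested, the share whose treated mice all lay above every control was 3.83%, 6.82%, 4.69% and 6.97% in these groups, and 2.76% and 6.34% in restraint females and males.

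The design also sets the doubly treated mice against mice with 1 treatment. Between PSD + restraint and restraint, 0 of 9 genes were called by edgeR (background 0.0951%) or DESeq2 (background 0.312%), with 5 of 9 at an unadjusted p under 0.05 beside 13.5% of all genes. Between PSD + restraint and PSD it was again 0 of 9 (background 2.01% by edgeR and 2.26% by DESeq2), with 1 of 9 at an unadjusted p under 0.05 beside 13.8% of all genes. These comparisons share the PSD + restraint mice with the one against controls. The interaction of PSD and restraint was called for 0 of 9 genes and for 0% of the genes tested, with 0 of 9 at an unadjusted p under 0.05 (3.92% of all genes) and 0 of 9 by DESeq2 (background 0%). The smallest adjusted p among the 9 was 0.153, 0.345 and 0.9999 in these 3 tests.

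Females and males differed in Pcsk1 and Pax7, in opposite directions. Pcsk1 lay between 90.4 and 202 CPM in females and between 187 and 283 CPM in males, and 14 of 16 females were below every male. The female minus male log2 difference of Pcsk1 was -0.72 (SE 0.07, adjusted p = 5.8e-09), a level 1.64-fold lower in females, and -0.69 (adjusted p = 7.6e-09) without male control mouse 1. Pax7 was 1.48-fold higher in females, with a log2 difference of 0.57 (SE 0.17, adjusted p = 0.0123), 0.48 (adjusted p = 0.0093) without that mouse, and overlapping ranges of 37.8 to 118 CPM in females and 11.3 to 64.7 CPM in males. These 2 of 9 calls stand beside 14.9% of all genes tested. Cpe (-0.22, adjusted p = 0.0015) and Pam (-0.30, adjusted p = 3.7e-05) were lower in females by less than the minimum fold change, while Pomc (0.09, adjusted p = 0.760), Pcsk2 (0.08, adjusted p = 0.777), Tbx19 (0.04, adjusted p = 0.815), Crhr1 (0.03, adjusted p = 0.780) and Avpr1b (0.32, adjusted p = 0.0775) were not called. The within-mouse ratio of Pcsk2 to Pcsk1 counts was 7.30 ± 1.30 (SD, n = 4) in control females and 3.76 ± 1.93 (SD, n = 4) in control males, of which male control mouse 1 had the lowest at 0.918. Whether the responses to treatment differ between the sexes was tested directly. Of the 9 genes, 0 were called for restraint, PSD or PSD + restraint by edgeR (background 0% in each) or DESeq2 (background 0%, 0.0951% and 0.0528%). An unadjusted p under 0.05 was found for 0, 2 and 0 of them, the 2 being Cpe and Avpr1b, beside 4.25%, 10.8% and 7.2% of all genes.

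Across mice, levels of most of the 9 genes were positively correlated, and 32 of 36 pairs had a positive r, or 34 of 36 without male control mouse 1. As deviations from the group mean of log2 CPM over 28 mice, Pomc and Pcsk2 had Pearson r = 0.98 (Spearman rho = 0.98), Pcsk2 and Pax7 r = 0.95 (rho = 0.94), Pomc and Pax7 r = 0.94 (rho = 0.91), Pomc and Tbx19 r = 0.90 (rho = 0.90) and Tbx19 and Pax7 r = 0.88 (rho = 0.87). In a permutation test within groups, r and rho of these pairs had a p of 1e-05, the smallest that 100000 draws can give, except that r of Pcsk2 and Pax7 had 2e-05. Adjusted over 36 pairs, the p of r was 7.2e-05 and for Pcsk2 and Pax7 1.03e-04, and that of rho was 5.1e-05. Without the 2 mice farthest from the median, which for Pomc were male control mouse 1 and restraint female 4, they were 0.96 for Pomc and Pcsk2, 0.90 for Pomc and Pax7 and 0.92 for Pomc and Tbx19. Without male control mouse 1 alone they were 0.96, 0.87 and 0.88. Cpe had r = 0.69 with Pomc, 0.71 with Pcsk2, 0.68 with Tbx19 and 0.58 with Pax7, and the highest adjusted permutation p of these was 0.0083. Crhr1 had r = 0.23 with Pomc and 0.41 with Tbx19 over all mice, and 0.62 and 0.68 without male control mouse 1. Crhr1 and Avpr1b, the corticotrope receptors, had r = 0.58 with each other (rho = 0.46, permutation adjusted p = 0.0508), and Avpr1b had r = 0.02 with Pomc. In all, 14 of 36 pairs had an adjusted p of at most 0.05.

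Pcsk1 and Pomc did not vary together in all subsets of mice. Over all mice r was 0.15 (rho = 0.22, permutation p = 0.503, adjusted p = 0.624), 0.46 without the 2 farthest mice, and 0.60 (rho = 0.49) without male control mouse 1 alone. Within the 16 females r was 0.78. Within the 12 males it was -0.87, and for the 11 males other than control mouse 1 it was -0.36. The difference between the sexes was not tested.

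**Figure D3:**
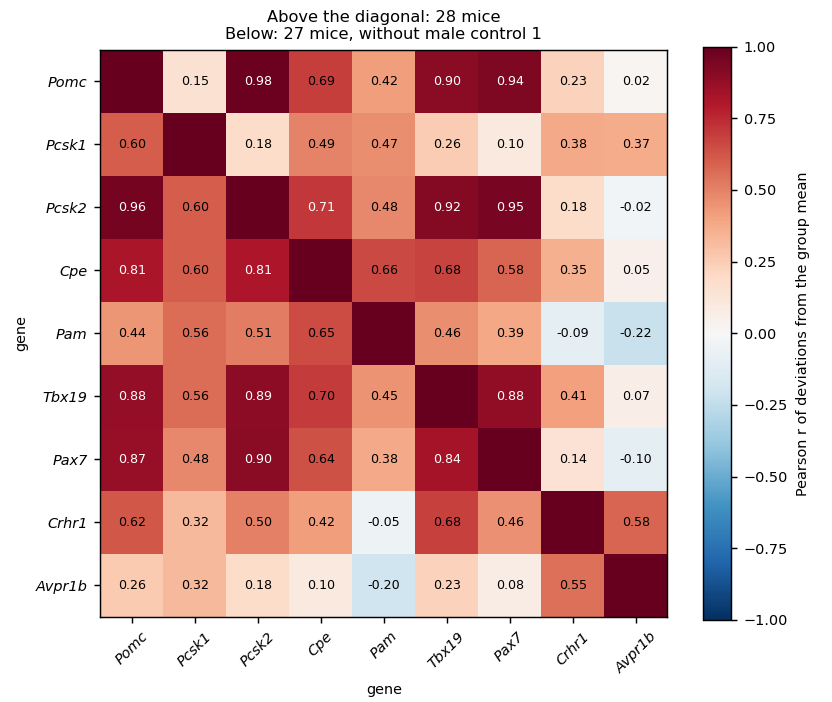
Pearson r of the deviations of log2 CPM from the group mean for each pair of genes (both axes), over 28 mice above the diagonal and over 27, without male control mouse 1, below it; colours run from -1 to 1. Pomc, Pcsk2, Tbx19 and Pax7 form a block with r from 0.88 to 0.98 above the diagonal, and Pcsk1 with Pomc changes from 0.15 to 0.60 below it.

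Among 15461 genes with a mean of at least 1 CPM, the 3 whose deviations resembled those of each gene most over 28 mice were listed, as a description. For Pomc they were Pcsk2 (r = 0.98), Enc1 (0.98) and Oacyl (0.97), and for Pcsk2 they were Oacyl (0.98), Pomc (0.98) and Arg1 (0.97). Pax7 was nearest to Jam2 (0.98), Sema3e (0.98) and AK077353 (0.96), and Tbx19 to Samd3 (0.95), Rbfox3 (0.94) and Mpp3 (0.94). The neighbours of Pcsk1 were Slk (0.84), Slc23a2 (0.75) and B3galnt1 (0.73), of Cpe Tmem184a (0.88), Cst6 (0.86) and Gnas (0.85), and of Pam Pld3 (0.82), A930024E05Rik (0.81) and Gng2 (0.80). Crhr1 was nearest to Nln (0.88), Svil (0.87) and Tmem71 (0.86), and Avpr1b to Usp6nl (0.78), Fam160a2 (0.76) and Akap8 (0.72). Oacyl, Rbfox3, Pcsk2 and Pax7 are on the melanotrope marker list, and none of these neighbours is on the corticotrope list. Without male control mouse 1, the nearest gene stayed Slk for Pcsk1, Tmem184a for Cpe, Pld3 for Pam, Samd3 for Tbx19, Jam2 for Pax7 and Usp6nl for Avpr1b, and it was Dner for Pomc (0.96), Nelfcd for Pcsk2 (0.97) and Clcn2 for Crhr1 (0.88).

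Transcripts of the posterior lobe, which adjoins the intermediate lobe, moved with several of the genes. The summed level of the 6 pituicyte genes was 64.6 to 94.7 CPM in control females, 83.8 to 126 after PSD and 110 to 143 after PSD + restraint, and of the 6 genes 1 (Vax1) was called higher over all mice after both treatments, by 0.77 on the log2 scale (adjusted p = 0.0266), or 0.64 (adjusted p = 0.0342) without male control mouse 1. The median of the 6 was 0.63, and 0.44 without that mouse. In males it was 84.6 to 109 CPM in the 3 controls other than mouse 1, 79.5 to 88.5 after PSD and 72.7 to 158 after PSD + restraint. The PSD males (n = 3) lay at the lower end of these controls or below it, and the ranges overlapped. Pomc was at 65869 CPM or more in the PSD males and at 63528 CPM or less in these controls, a narrow gap. How Pomc relates to the pituicyte level was not tested in these mice alone. Over 27 mice without male control mouse 1, the mean log2 level of the 6 genes had, as deviations from group means, r = 0.84 with Pax7, 0.76 with Pomc, 0.74 with Pcsk2, 0.68 with Tbx19, 0.64 with Cpe, 0.47 with Crhr1, 0.34 with Pcsk1, 0.31 with Pam and 0.23 with Avpr1b. With that level as a covariate in the edgeR model of all mice, Pcsk1 kept its call after PSD + restraint, at 0.63 (adjusted p = 2.5e-04), while Pomc had 0.48 (adjusted p = 0.0869) and Pcsk2 0.51 (adjusted p = 0.0538), and Cpe had 0.30 (adjusted p = 0.0151), under the minimum fold change. In the same model Pomc (0.79, adjusted p = 0.0205) and Pcsk2 (0.74, adjusted p = 0.0247) were called after PSD alone. Without male control mouse 1, the covariate left Pcsk1 at 0.55 (edgeR adjusted p = 0.00108), Pomc at 0.37 (adjusted p = 0.236) and Pcsk2 at 0.40 (adjusted p = 0.173) after PSD + restraint. After PSD alone Pomc (0.80, adjusted p = 0.0107), Pcsk2 (0.74, adjusted p = 0.0124) and Pcsk1 (0.40, adjusted p = 0.0236) were then called. In females the covariate left Pomc at -0.03 and Pcsk2 at -0.01 after PSD + restraint, Pcsk1 had 0.45 (adjusted p = 0.458), and no gene of the 9 was called by edgeR. As deviations from the mean of all mice, the covariate ran from -0.40 to 0.10 in control females. It ran from 0.29 to 0.83 in PSD + restraint females, without overlap, so this fit cannot tell covariate and treatment apart in them. These females are also part of the fits over all mice, where the same limit holds for them. The part of posterior lobe tissue in these results was not tested beyond these fits.

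**Figure D4:**
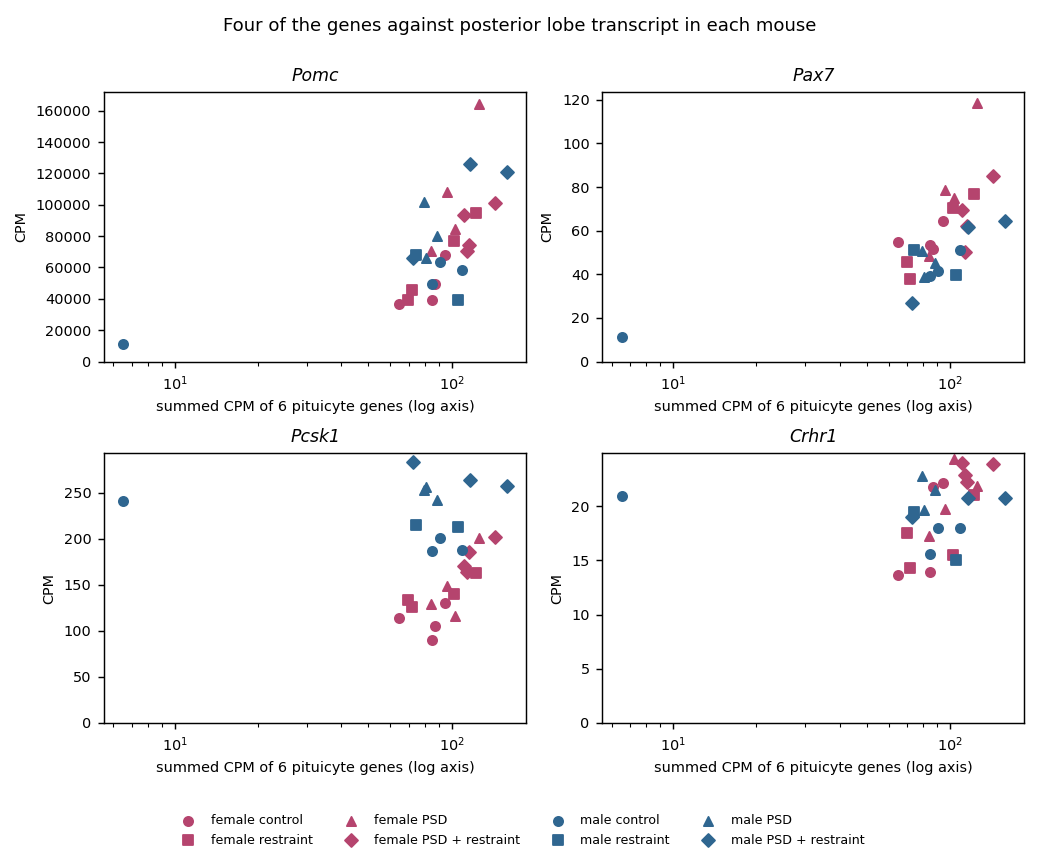
CPM of Pomc, Pax7, Pcsk1 and Crhr1 (linear y axes from 0) against the summed CPM of 6 pituicyte genes (log x axis) in each of 28 mice, with colour for sex and symbol for treatment. The point at 6.52 CPM on the x axis is male control mouse 1, the lowest for Pomc and Pax7 but not for Pcsk1 or Crhr1.

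Genes that share a role with the 9 were followed as lists. The melanotrope list includes Pcsk2 and Pax7 of the 9, and the corticotrope list includes Crhr1 and Avpr1b. Of 8 melanotrope markers, 6 were called higher after PSD + restraint over all mice, namely Esm1 (0.94, adjusted p = 0.0070), Megf11 (1.21, adjusted p = 0.0050), Oacyl (0.86, adjusted p = 0.0227), Pkib (0.59, adjusted p = 0.0370), Rbfox3 (0.90, adjusted p = 0.0198) and Pcsk2, and the median of the 8 was 0.88. Esm1 was also called after restraint alone (0.99, adjusted p = 0.0231) and Megf11 after PSD alone (1.22, adjusted p = 0.0350). These 8 calls held without male control mouse 1, and the median after PSD + restraint was 0.75. Within a sex, 0 of 8 were called after PSD + restraint in females and 0 of 8 in males, with 6 and 5 of 8 at an unadjusted p under 0.05 and medians of 0.735 and 1.04. Megf11 was called in males (1.21, adjusted p = 0.0433) once male control mouse 1 was left out. Of 7 corticotrope markers none was called by edgeR, with a median of 0.07 and 1 at an unadjusted p under 0.05, or 0.24 and 2 without male control mouse 1. Crhr1 (0.28) and Tnnt1 (0.33, adjusted p = 0.221) had the smallest p of that list. Summed over the 8 melanotrope markers, the level was 1413 to 2093 CPM in control females and 2036 to 3385 after PSD + restraint. Pcsk2 (median 1080 CPM over all mice) and Oacyl (689 CPM) had the highest levels of these 8. For the 7 corticotrope markers it was 33.1 to 54.8 and 50.1 to 57.9 CPM.

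Of 13 further genes of prohormone processing and granules, 2 were called higher after PSD + restraint over all mice and 0 lower. Chga, the granule protein chromogranin A, changed by 0.84 on the log2 scale (SE 0.15, adjusted p = 3.2e-04), with 942 to 1157 CPM in control females and 1617 to 2239 in PSD + restraint females, and it was called after PSD as well (0.80, adjusted p = 0.0074). Scg2, secretogranin II, had 0.50 (SE 0.11, adjusted p = 0.0050) over all mice and 0.79 (adjusted p = 0.0145) in females, but 0.18 (adjusted p = 0.265) in males, and the female minus male difference of 0.61 (SE 0.20, unadjusted p = 0.00565, edgeR adjusted p = 0.573) was not called. The median of the 13 was 0.05. Chga (0.80, adjusted p = 7.8e-04) and Scg2 (0.54, adjusted p = 0.0023) were again called after PSD + restraint without male control mouse 1, and so was Chga after PSD (0.76, adjusted p = 0.0205).

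Among 14 regulators of Pomc transcription, 4 were called higher after PSD + restraint over all mice and 3 after restraint alone. Nr4a1 (also called Nur77), an orphan nuclear receptor that CRF induces in corticotropes, was at 22.3 to 76.6 CPM in control females, at 441 to 971 after restraint and at 575 to 1255 after PSD + restraint. Its log2 fold change was 4.12 (adjusted p = 3.7e-06) after restraint and 4.41 (adjusted p = 4.6e-07) after both, and Nr4a2 (3.64 and 4.05) and Nr4a3 (3.93 and 4.61) were called as well. In the same restraint mice Pomc overlapped the controls in both sexes. The fourth call after both treatments was Etv1, at 0.57 (adjusted p = 0.0201), and the calls of all 4 held without male control mouse 1, with Etv1 at 0.49 (adjusted p = 0.0310). In PSD males killed without restraint Nr4a1 was at 84.1 to 471 CPM, above the 13.6 to 49.0 CPM of control males, and in PSD females it was at 34.9 to 92.3 CPM, overlapping the controls. After PSD over all mice its log2 fold change was 1.64 (adjusted p = 0.0732).

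Of 18 genes of receptors and signalling, 16 passed the filter over all mice, and none was called after PSD + restraint by edgeR, with 2 of 16 at an unadjusted p under 0.05. Prkar1a, a regulatory subunit of protein kinase A, had 0.21 (adjusted p = 0.0013), and Gnas, which encodes the stimulatory G protein alpha subunit, had 0.25 (adjusted p = 0.0473), both under the minimum fold change. Crhbp, the CRF binding protein, was called lower after PSD over all mice (-2.50, adjusted p = 0.0350), and also without male control mouse 1 (-2.47, adjusted p = 0.0463). In females it was at 56.8 to 165 CPM in controls and at 4.70 to 23.6 CPM after PSD, with no overlap, and in males it stayed at or under 1.24 CPM in every group. PSD + restraint females had 59.5 to 226 CPM of Crhbp. Once male control mouse 1 was left out, Crhbp was called higher in PSD + restraint males (3.52, adjusted p = 0.0206), at levels of at most 1.24 CPM. The study's methods report that qRT-PCR of the assayed genes, Pomc, Pcsk2 and Crhr1 among them, gave patterns like those of the counts. They name male Crhbp as the exception.

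Markers of the other cell types of the gland were followed as well. After PSD + restraint over all mice, none of the markers of somatotropes (2 genes, median log2 fold change -0.17), lactotropes (1 gene, -0.27), gonadotropes (3 genes, 0.10), thyrotropes (2 genes, 0.10), stem and folliculostellate cells (3 genes, 0.14), endothelium (3 genes, -0.08), macrophages (3 genes, 0.10) or forebrain neurons (5 of 6 genes tested, 0.37), nor Avp and Oxt (2 genes, 0.61), was called by edgeR. At an unadjusted p under 0.05 were 1 gene each of the lactotrope, endothelial, macrophage and neuron lists and of Avp and Oxt, and 0 of the others. Without male control mouse 1 none of these lists had a call over all mice, and the median of the neuron list was 0.67. Within a sex the lists did not all behave alike. In PSD + restraint females C1qa, a complement gene of macrophages, was called higher (0.46, adjusted p = 0.0476), while in males it had 0.0088 (adjusted p = 0.978). The neuron list had a median of 0.88 in females (4 genes tested) and -0.29 in males (5 genes tested), or 0.125 in males without control mouse 1, with no call. The 3 endothelial genes had negative values in males, each at an unadjusted p under 0.05 and none called (median -0.32), beside a median of 0.095 in females. The part of these cells in the results of the 9 genes was not tested.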

How the data were processed

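Per the labels and the study's methods, poly(A) RNA libraries of whole pituitaries were made with a stranded kit and sequenced in pairs, and the authors aligned the reads with MapSplice to mm10 and counted them per gene with HTSeq 0.9.1 on UCSC gene models. The deposited values used here are those raw counts, while a table of values that the authors normalised with DESeq2 1.16.1 was not used. The strand setting of the counting was not given in the sources used here. Totals per mouse ranged from 14024465 to 52948531 counts, which leaves little counting error for every gene but Avpr1b.

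The tests were run in R 4.3.3 with the quasi-likelihood test of edgeR 4.0.16 on counts scaled by TMM, after filterByExpr, with Benjamini-Hochberg adjustment over all genes tested. A call needed an adjusted p of at most 0.05 and an absolute log2 fold change of at least 0.322. The terms were sex, PSD, restraint and the interaction of PSD and restraint over all mice, the same without sex in each sex, and 8 group means for differences between the sexes. Log2 CPM used a prior count of 2, and correlations of deviations from group means used 100000 two-sided permutations within groups (Python 3.11.15, NumPy 2.4.6, pandas 2.3.3, SciPy 1.17.1; plots with matplotlib 3.10.9). Per-kilobase levels used merged exons of GENCODE M21 (GRCm38), and promoter sequence is from RefSeq. The fitting step was tested on simulated counts.

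The labels name each mouse as a sample of its own and give no batch, and 37 pairs within groups differed by more than sampling noise (chi-square per degree of freedom 7.48 to 139), so no library was counted as a copy. Mice of a cage shared a tank, so p-values may measure less than the full spread between experiments. The 9 genes, the related and marker lists and the tests were chosen with earlier results of these data known. The text names all 9 genes, genes of a list called in a comparison described (for a list with no call, those with the smallest p where it is described) and the 3 nearest genes of each member by r. Alternatives were DESeq2 1.42.0, its size factors, library size alone, other filters, the robust option, no minimum fold change, only the groups compared, a posterior lobe covariate, a replicate block and leaving out each mouse. Correlations, gene lists and the covariate fit without male control mouse 1 were added after seeing the data.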

Additional observations from a re-analysis of the deposited data

How the results depend on the processing

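Among all mice after PSD + restraint, the number of the 9 genes called was 4 and stayed within 1.5 times of it under every alternative except the posterior lobe covariate, which left 1. That covariate did not overlap between control and PSD + restraint females, who are part of this fit. After PSD the number was 0 (background 0.671%), and it became 3 with DESeq2 (background 1.53%), 1 with library size alone, 2 with the posterior lobe covariate and 1 with no minimum fold change. With that covariate and without male control mouse 1 it was 1 after PSD + restraint and 3 after PSD, and Pax7 (-0.28) and Tbx19 (-0.050) changed sign after PSD + restraint. Between females and males it was 2, and 4 with no minimum fold change. In females after PSD it was 0 (background 0.0277%), and it became 1 with at least 10 counts in every mouse, 3 with DESeq2 (background 2.42%) and 1 with the replicate block. In females after PSD + restraint it was 2, and it became 4 with only the groups compared and 0 with the posterior lobe covariate. In males after PSD it was 0, and 1 with the posterior lobe covariate, and in males after PSD + restraint it was 1, and 0 with only the groups compared and 0 with the replicate block. Leaving out each mouse gave 0 to 3 after PSD over all mice, 0 to 3 after PSD and 0 to 2 after PSD + restraint in females, and 0 to 1 after PSD and 0 to 1 after PSD + restraint in males. The 3 calls after PSD over all mice came without control female 1, PSD female 4 or PSD male 1, and the 3 in females without PSD female 4. The count in females after PSD + restraint was 0 without PSD + restraint female 1. The cause was not tested in these cases. Apart from DESeq2, the share of all genes called under each alternative or with a mouse left out is not given here. These counts therefore do not show whether a change was particular to the 9 genes.

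With the posterior lobe covariate these log2 values changed sign. Over all mice Pax7 became -0.058 after restraint and -0.13 after PSD + restraint, and between the sexes Pomc became -0.11, Pcsk2 -0.11 and Tbx19 -0.057. In females Tbx19 became -0.019 after PSD, and after PSD + restraint Pomc became -0.026, Pcsk2 -0.010, Tbx19 -0.11 and Pax7 -0.46. The covariate did not overlap between control and PSD + restraint females, so it cannot be told apart from treatment in the latter values. These females are also part of the fits over all mice. In males Pomc became -0.11 after restraint, Tbx19 -0.11 after PSD, and after PSD + restraint Pax7 -0.018 and Avpr1b 0.10. With library size alone the sex difference became -0.027 for Tbx19 and -0.025 for Crhr1, and with DESeq2 Tbx19 became -7.4e-04 in males after PSD. Leaving out each mouse gave ranges that cross 0 for Avpr1b after PSD + restraint (-0.11 to 0.12 over all mice, -0.22 to 0.17 in females, -0.18 to 0.084 in males) and after PSD in females (-0.33 to 0.065), for the sex difference of Pcsk2 (-0.0044 to 0.13) and Tbx19 (-0.0082 to 0.092), for Pomc after restraint in males (-0.22 to 0.58) and for Tbx19 after PSD in males (-0.17 to 0.13). None of these values was called in the reported fit.

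Mice with the same number in different groups are different animals. Of 39 same-number pairs, 10 had an r over 0.1 (range -0.426 to 0.46, median -0.0376), and 6 of 27 mice correlated best with their own number. With the replicate block, Avpr1b in males after PSD + restraint became 0.10 and Cpe in females after PSD was called (adjusted p = 0.0293). Depth limits Avpr1b most, with 43 to 316 counts per mouse, and groups of 2 to 4 mice limit every test within a sex.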
